A study of Mus musculus with 9 samples.

Results

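The genes described here encode the heat shock chaperones of the cell interior and the cytosolic chaperonin TRiC with their co-chaperones, 39 genes named as a list. A gene was taken from the deposited array table by its annotated symbol, with 1 probe set per gene, the one with the highest mean over the 9 arrays. Of the 39 genes, 35 had a probe set annotated to that gene alone, among 22180 such genes in the table. Dnaja1 and Stub1 were on probe sets shared with another gene, and Hsp90ab1 and Hsf1 were not analysed here. The cells were N1E-115, a line from a mouse neuroblastoma that grows neurites when serum is withdrawn. There were 3 arrays each of cells given an siRNA pool against Hmgn5 and collected at 24 h, of cells given control siRNA at 24 h, and of cells given control siRNA at 4 h. Every group had received 80 nM of siRNA, an overnight starvation in Neurobasal medium without serum and replating on laminin, and the times are those of differentiation. No group with Hmgn5 siRNA at 4 h was analysed here. Whether the replicates of a group were grown separately is not in the labels. The p-values below therefore stand for the scatter among these arrays, part of which may be technical.

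Chaperones of the HSP70 class bind exposed hydrophobic stretches of unfolded proteins in a cycle driven by ATP. J-domain proteins deliver the substrate and start ATP hydrolysis, and HSP110 proteins and BAG proteins release the nucleotide. HSP90 takes over partly folded clients such as kinases and steroid receptors with the help of its own co-chaperones, and the ring-shaped TRiC folds actin and tubulin, the main cytoskeletal proteins of neurites. Many of these genes are induced through heat shock elements, inverted repeats of GAA that bind the factor Hsf1. The list is not purely cytosolic: Hspa9, Hspd1 and Hspe1 encode chaperones of the mitochondrial matrix and are given separately.

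The deposited values are log2 signals from robust multi-array averaging (RMA), so a difference of 1 is a doubling. Hmgn5 read 3.53, 3.45 and 3.50 on the Hmgn5 siRNA arrays at 24 h, 4.77, 4.66 and 4.69 on the control arrays at 24 h, and 4.53, 4.23 and 4.57 on the control arrays at 4 h. Against control siRNA at 24 h it fell by 1.21 on the log2 scale (SE 0.09, limma adjusted p = 0.00367), with no overlap. The Hmgn5 siRNA arrays read it among the lowest 16.1% of the probe sets, a dim signal, so this value may understate the fall in RNA. The array of replicate 2 of control siRNA at 4 h was unlike the others (array weight 0.198, against 0.789 to 1.74 for the rest), so the time results it moves are also given without it. Of 13 measured markers of neuroblastoma and sympathetic neurons, 12 lay above the array median on all arrays. Over time 2 of these and 1 of 6 glia markers were called higher, and their part in the results was not tested. The median marker of glia, fibroblasts, leukocytes and endothelium lay between the 31.3 and 57.3 percentiles of the probe sets on every array. Above the array median on all arrays were 1 of 6 glia, 4 of 7 fibroblast, 1 of 6 leukocyte and 3 of 7 endothelium markers.

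The promoters are shown first because heat shock elements are the best known feature that genes of this class share. RefSeq promoter windows (GRCm38.p6, 250 bases before to 50 bases after the start of transcription) matched 31 of the 39 genes. Cct4, Cryab, Hsf1, Hsp90aa1, Hsp90ab1, Hspa8, Hspa9 and St13 were not matched. A pair of inverted GAA units, spelled GAANNTTC or TTCNNGAA, stood in 17 of the 31 (54.8%), against 17.0% of all 27025 genes with a window. Among genes measured here it stood in 15 of 29 members (51.7%), against 15.7% of 16990 genes. A gene with several start sites has several windows and was counted where any of them matched. More than 1 window was held by 8 of the 31 (25.8%) and by 15.4% of all genes, and with a match required in every window the count was 12 of the 31 (38.7%), against 13.6%, a rule added after the values were seen. Cct2, Cct5, Dnaja1, Dnajb4 and Hspd1 matched in 1 window only. Both spellings read the same on either strand, and overlapping matches were kept. A run of 3 units, which is the first spelling followed by NNGAA or the second followed by NNTTC, stood in Hsph1, Chordc1, Hspe1, Hspd1 and Dnajb6, which is 5 of the 31 (16.1%), against 0.662% of all genes with a window. The 3-unit spellings contain the 2-unit ones and are each other's reverse complement. Below are the 3 members with such a run whose RNA rose between 4 h and 24 h (Hsph1, Chordc1, Hspe1), 1 that rose with neither spelling in its window (Ahsa1) and 1 that has a run and was not called (Dnajb6). Hsph1 and Dnajb6 have 2 overlapping windows, of which 1 is shown. Each line runs 5′ to 3′ on the gene's strand, from 250 bases before the start to 30 after it, and capitals mark the matches.
Hsph1, chr5:149636286-149636565, minus strand: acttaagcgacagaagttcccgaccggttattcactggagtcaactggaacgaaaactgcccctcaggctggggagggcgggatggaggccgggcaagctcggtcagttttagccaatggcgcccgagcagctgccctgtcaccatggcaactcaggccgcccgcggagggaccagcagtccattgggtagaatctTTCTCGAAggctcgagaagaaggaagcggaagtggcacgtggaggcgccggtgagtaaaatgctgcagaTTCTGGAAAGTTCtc
Chordc1, chr9:18292017-18292296, plus strand: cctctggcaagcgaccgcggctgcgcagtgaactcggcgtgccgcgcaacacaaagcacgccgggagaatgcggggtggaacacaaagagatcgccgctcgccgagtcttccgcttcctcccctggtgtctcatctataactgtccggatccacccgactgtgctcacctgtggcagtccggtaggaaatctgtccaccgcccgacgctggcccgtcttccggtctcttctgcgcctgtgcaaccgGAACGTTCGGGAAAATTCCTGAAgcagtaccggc
Hspe1, chr1:55087898-55088177, plus strand: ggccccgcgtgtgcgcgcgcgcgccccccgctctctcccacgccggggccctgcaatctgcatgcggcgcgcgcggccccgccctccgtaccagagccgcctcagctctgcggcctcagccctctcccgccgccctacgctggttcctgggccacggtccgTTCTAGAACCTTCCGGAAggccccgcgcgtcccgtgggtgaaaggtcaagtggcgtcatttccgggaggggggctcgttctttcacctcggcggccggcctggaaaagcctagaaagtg
Ahsa1, chr12:87266478-87266757, plus strand: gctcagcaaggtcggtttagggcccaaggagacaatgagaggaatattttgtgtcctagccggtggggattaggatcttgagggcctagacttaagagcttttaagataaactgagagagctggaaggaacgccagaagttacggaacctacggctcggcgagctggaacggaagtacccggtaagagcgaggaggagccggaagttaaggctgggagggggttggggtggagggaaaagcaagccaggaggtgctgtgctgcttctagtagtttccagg
Dnajb6, chr5:29735648-29735927, plus strand: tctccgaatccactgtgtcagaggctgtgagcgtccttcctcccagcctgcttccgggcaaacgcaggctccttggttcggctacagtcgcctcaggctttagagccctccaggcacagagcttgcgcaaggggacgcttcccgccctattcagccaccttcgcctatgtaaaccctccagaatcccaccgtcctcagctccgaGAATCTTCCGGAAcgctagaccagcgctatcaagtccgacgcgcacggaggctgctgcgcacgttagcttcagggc
In Chordc1 the matches run on over 23 bases across the start site, and in Hspe1 over 18 bases, from 89 bases before the start. Hspd1, which lies head to head with Hspe1, holds the same 18 bases on its own strand, from 144 bases before its start. This 1 stretch was counted for both genes in the shares above. These matches are a description of the windows and do not show a bound site.

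Between 4 h and 24 h in control cells, RNA of 9 of the 35 measured members rose and that of none fell. A gene was called where limma's Benjamini-Hochberg adjusted p over all 22180 genes was under 0.05, and 2.17% of all genes were called higher and 2.17% lower (4.34% in all). In numbers, 481 genes were called higher and 482 lower, or 477 and 309 with each array centred on its median, where 7 of the members were called, without Hspa8 and Chordc1. The members were brighter than most genes: 26 of the 35 had a mean level over 8, against 5800 of the 22180. With the dimmest 33% of genes removed, 605 of 14787 genes were called higher and 637 lower (8.4% in all), beside 9 of 33 members, all higher. The 9 were Hsph1, Hspa4l and Hspa8 of the HSP70 and HSP110 class, Dnajb1 of the J-domain proteins, the HSP70 co-chaperone St13, the HSP90 co-chaperones Ahsa1, Stip1 and Chordc1, and the mitochondrial co-chaperonin Hspe1. Counting the genes not called, 29 of the 35 had a difference above 0, against 54.9% of all genes, and the median difference was 0.15, against 0.02 over all genes. The 24 h arrays lay above all the 4 h arrays for 17 members (11.3% of all genes) and below them for 1, Dnaja2 (9.98% of all genes). In RNA from whole cultures, more cells expressing a gene and more RNA per cell cannot be told apart.

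**Figure D1:**
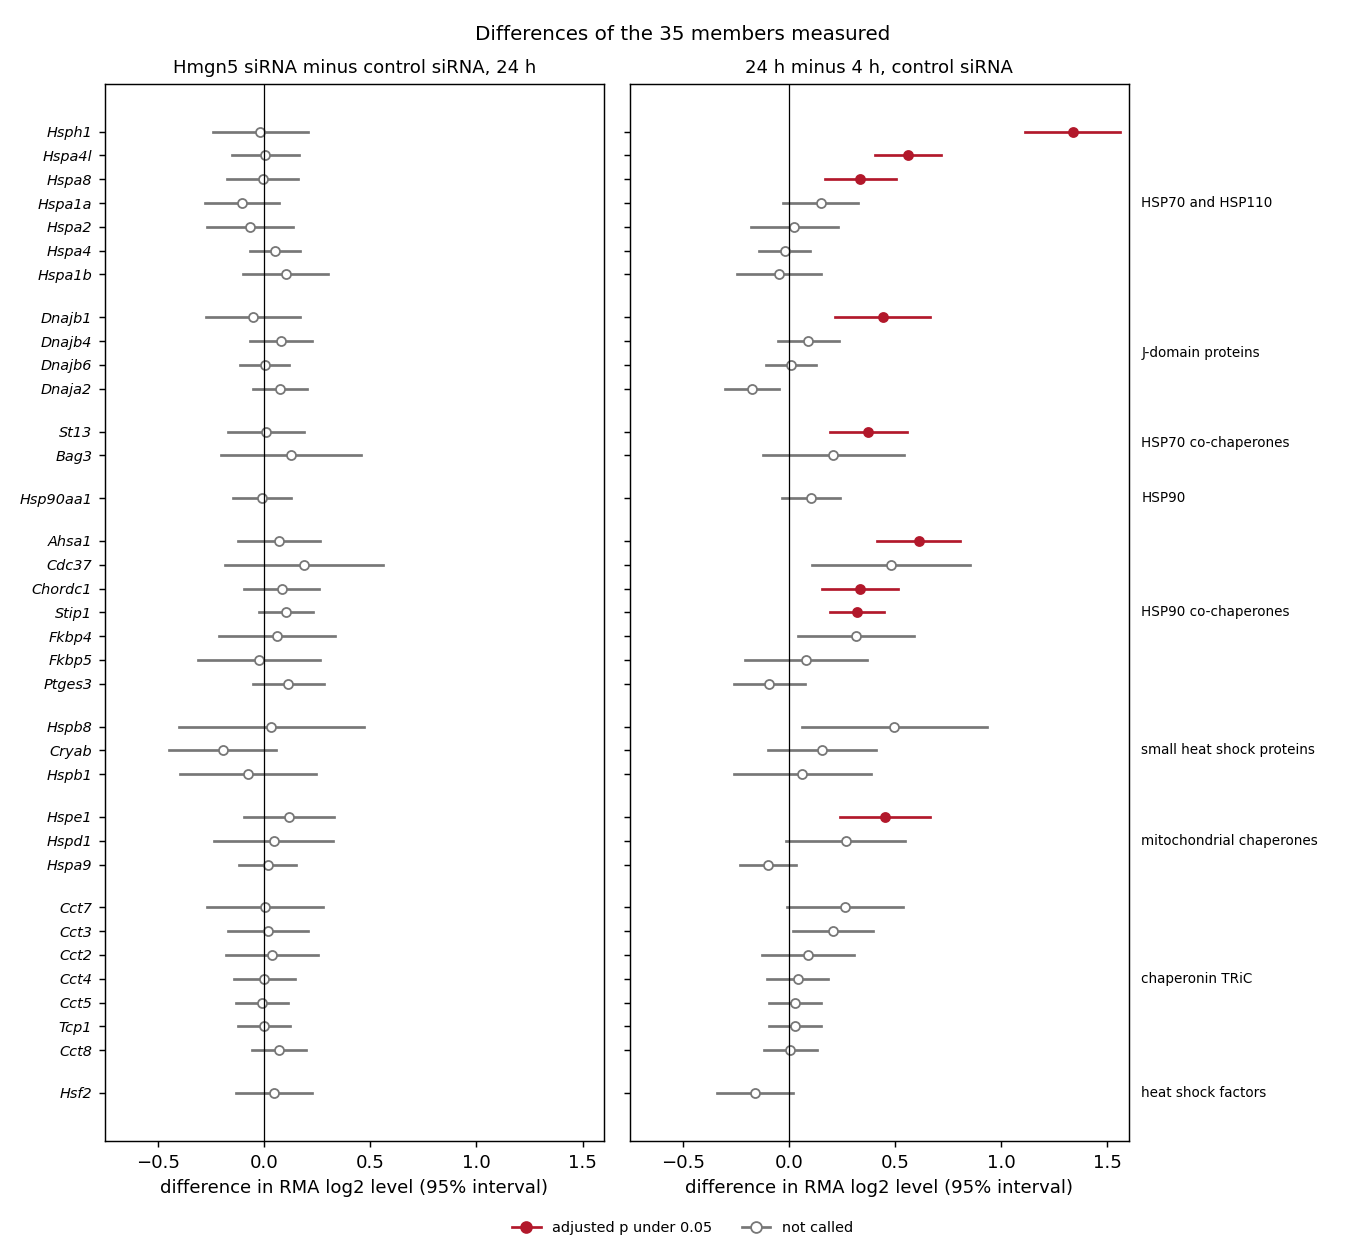
Differences in RMA log2 level of the 35 measured members, Hmgn5 siRNA minus control siRNA at 24 h (left) and 24 h minus 4 h with control siRNA (right), grouped by role, with limma estimates as points and 95% intervals as bars. Filled red points have an adjusted p under 0.05 over all genes: none on the left, and 9 on the right, where Hsph1 at 1.34 lies furthest from 0.

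In the HSP70 and HSP110 class 3 of 7 members rose. Hsph1, an HSP110 protein that exchanges the nucleotide of HSP70 and helps to dissolve aggregates, read 10.37, 10.30 and 10.42 on the Hmgn5 siRNA arrays at 24 h, 10.39, 10.43 and 10.32 on the control arrays at 24 h, and 9.19, 8.80 and 9.15 on the control arrays at 4 h. All 6 arrays at 24 h lay more than 1 log2 unit above the highest 4 h array. Its rise in control cells was 1.34 (SE 0.10, limma adjusted p = 0.000447), or 2.53-fold, and 1.21 without control 4 h replicate 2. Hspa4l, a second HSP110 protein, read 9.25, 9.15 and 9.15 with Hmgn5 siRNA, 9.15, 9.16 and 9.22 in control cells at 24 h, and 8.51, 8.72 and 8.61 at 4 h. The 24 h arrays again lay together and above the 4 h arrays, here with replicate 2 as the highest of the 4 h arrays. It rose by 0.56 (SE 0.07, limma adjusted p = 0.00382), and by 0.62 without that replicate. The third HSP110 gene, Hspa4, differed by only -0.02 (95% interval -0.14 to 0.10) and was not called.

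Hspa8, the constitutive HSP70 of the cytosol, read 12.36, 12.29 and 12.40 with Hmgn5 siRNA, 12.37, 12.31 and 12.39 in control cells at 24 h, and 12.06, 11.88 and 12.13 at 4 h. The times did not overlap, and the rise was 0.34 (SE 0.07, limma adjusted p = 0.0362), or 0.27 without control 4 h replicate 2. The table holds 3 other probe sets of Hspa8 alone, and they differed by 0.56, 0.14 and 0.13, with only the one at 0.56 free of overlap (limma adjusted p over probe sets = 0.0927). A probe set shared with the small nucleolar RNA gene Snord14e differed by -0.23 (limma adjusted p over probe sets = 0.597), with overlap. With all arrays the size for Hspa8 therefore differed between probe sets, and control 4 h replicate 2 bears on this. On the one at 0.56 it read 8.42, against 8.93 and 8.88 on the other 4 h arrays. On those at 0.14 and 0.13 it read 9.76 and 9.78, above the other 4 h arrays (9.42 and 9.48, and 9.46 and 9.44). It was the only 4 h array there that overlapped with 24 h in control cells. Hspa1a and Hspa1b, the stress-inducible HSP70 genes, were dim on every array, between 3.44 and 3.81 for Hspa1a and between 3.24 and 3.52 for Hspa1b. That places them in the lowest 21.8% and 15.6% of the probe sets, and neither was called over time (0.15 and -0.05). Hspa2, an HSP70 best known from the testis, differed by 0.03.

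Of the 4 J-domain genes measured, 1 rose. Dnajb1, the stress-inducible HSP40, read 8.39, 8.15 and 8.23 with Hmgn5 siRNA, 8.44, 8.33 and 8.16 in control cells at 24 h, and 7.90, 7.72 and 7.98 at 4 h. Every 24 h array lay above every 4 h array, though the spread within each group was wide beside the difference. The rise was 0.44 (SE 0.10, limma adjusted p = 0.0385). Dnaja2 was the only member whose control 24 h arrays all lay below the 4 h arrays (difference -0.17, limma adjusted p = 0.138), and it was not called. Dnajb4 and Dnajb6, the second of which holds back aggregation of polyglutamine proteins, differed by 0.09 and 0.01. Dnajb6, whose promoter holds 1 of the 3-unit runs printed above, averaged 7.03 with Hmgn5 siRNA at 24 h, 7.02 with control siRNA at 24 h and 7.01 at 4 h.

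St13, the HSP70-interacting protein that stabilises the nucleotide-bound state, read 10.31, 10.26 and 10.22 with Hmgn5 siRNA, 10.32, 10.24 and 10.21 in control cells at 24 h, and 9.90, 9.72 and 10.02 at 4 h. The 24 h arrays were all higher, and St13 rose by 0.37 (SE 0.08, limma adjusted p = 0.0317), and by 0.29 without control 4 h replicate 2. Bag3, which exchanges the nucleotide of HSP70 and directs clients to autophagy, differed by 0.21 with all arrays and by 0.00 without control 4 h replicate 2, and was not called either way.

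Among the HSP90 co-chaperones 3 of 7 rose, while Hsp90aa1, the inducible HSP90 itself, differed by 0.10 (95% interval -0.03 to 0.24, limma adjusted p = 0.419). Ahsa1, the activator of the HSP90 ATPase, read 9.75, 9.69 and 9.69 with Hmgn5 siRNA, 9.61, 9.66 and 9.66 in control cells at 24 h, and 9.20, 8.83 and 9.06 at 4 h. The groups at 24 h were tight and stood above the more scattered 4 h arrays. Ahsa1 rose by 0.61 (SE 0.09, limma adjusted p = 0.00645), or 1.53-fold, and by 0.51 without control 4 h replicate 2. Stip1, which holds HSP70 and HSP90 together while a client passes between them, read 10.85, 10.84 and 10.90 with Hmgn5 siRNA, 10.77, 10.77 and 10.76 in control cells at 24 h, and 10.39, 10.51 and 10.42 at 4 h. The 3 groups of Stip1 did not overlap with one another. Its rise in control cells was 0.32 (SE 0.06, limma adjusted p = 0.0155), or 0.36 without that replicate.

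Chordc1, an HSP90-binding protein with zinc-binding domains, read 9.80, 9.67 and 9.84 with Hmgn5 siRNA, 9.80, 9.62 and 9.65 in control cells at 24 h, and 9.34, 9.26 and 9.45 at 4 h. The lowest 24 h array was still above the highest 4 h array, and the rise was 0.33 (SE 0.08, limma adjusted p = 0.0476). The other HSP90 co-chaperones were not called. Cdc37, which brings kinases to HSP90, differed by 0.48 (limma adjusted p = 0.155), and the immunophilins Fkbp4 and Fkbp5 by 0.32 and 0.08. With control 4 h replicate 2 left out these were 0.25, 0.15 and -0.10. Ptges3, the p23 protein that stabilises the closed form of HSP90, differed by -0.09 on its own probe set. On brighter probe sets shared with its pseudogene the differences with all arrays were 0.41 and 0.09, neither called. Control 4 h replicate 2 was the lowest array on both, at 8.46 and 11.56. The other 4 h arrays read 9.30 and 9.30 on the first, and 11.77 and 11.83 on the second. Leaving that array out would lower both differences.

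None of the 3 small heat shock genes was called, at 0.50 for Hspb8, 0.16 for Cryab and 0.06 for Hspb1. Second probe sets of Cryab alone and Hspb1 alone differed by 0.06 and -0.15. Small heat shock proteins hold unfolded clients without using ATP, and Hspb8 works in a complex with Bag3. Of the 3 mitochondrial chaperones, Hspe1, the lid of the HSP60 ring, read 9.23, 9.12 and 9.05 with Hmgn5 siRNA, 8.93, 9.19 and 8.93 in control cells at 24 h, and 8.44, 8.68 and 8.57 at 4 h. Its times did not overlap, and it rose by 0.45 (SE 0.10, limma adjusted p = 0.0297), and by 0.51 without control 4 h replicate 2. Hspd1, the HSP60 ring protein that shares the divergent promoter with Hspe1, differed by 0.27 (limma adjusted p = 0.298), and the matrix HSP70 Hspa9 by -0.10.

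The 7 subunits of TRiC measured (Tcp1, Cct2, Cct3, Cct4, Cct5, Cct7 and Cct8) all lay above 0 and none was called. Without control 4 h replicate 2, Cct2 and Cct4 lay below 0 (-0.04 and -0.02). Tcp1 was at -0.13 with all arrays and the mean of its probe sets. Its second probe set was dim, at 3.90 in control cells at 24 h and 4.18 at 4 h. With all arrays and 1 probe set per gene the differences lay between 0.01 for Cct8 and 0.26 for Cct7, with a median of 0.04. Without control 4 h replicate 2 the highest were Cct7 and Cct3 at 0.11 each, where Cct3 was at 0.21 with all arrays, and the median was 0.00. For Cct8 the 95% interval ran from -0.12 to 0.13, and for Tcp1 from -0.09 to 0.15. Hsf2, the heat shock factor active in development, differed by -0.16 (limma adjusted p = 0.336).

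**Figure D2:**
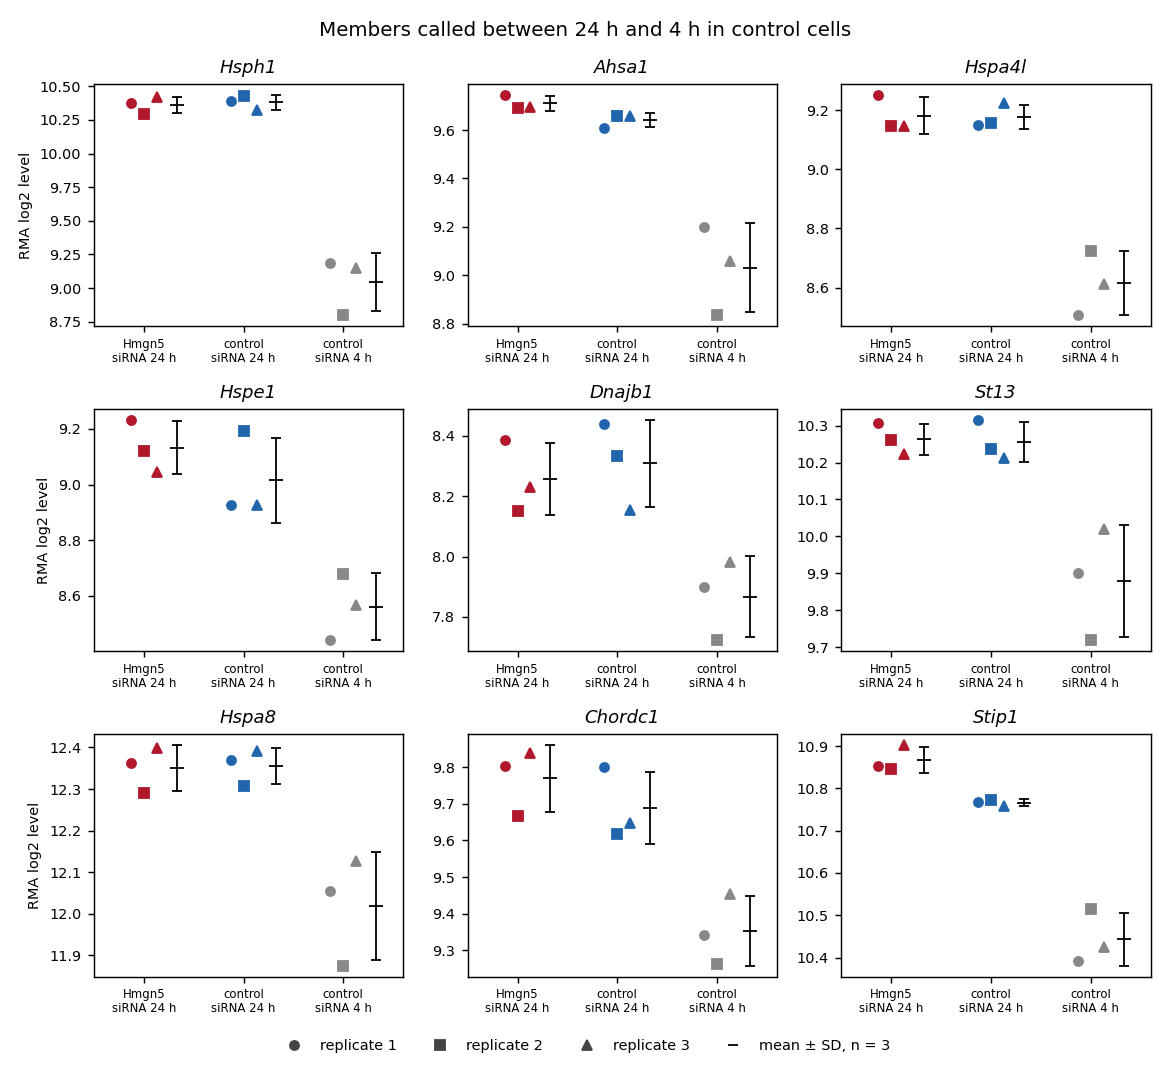
RMA log2 levels (vertical axis, a separate scale for each gene) of the 9 members that rose over time with control siRNA, on the 9 arrays, with Hmgn5 siRNA at 24 h in red, control siRNA at 24 h in blue and control siRNA at 4 h in grey; bars are mean ± SD, n = 3. In each panel both 24 h groups lie above all 4 h arrays, and for Hsph1 the lowest 24 h array reads 10.30 and the highest 4 h array 9.19.

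The promoter letters and the calls can be set side by side for the 29 measured members with a window. Of the 7 called members with a window, 3 held a pair of units (42.9%), all of them as a 3-unit run. Ahsa1, Hspa4l, Dnajb1 and Stip1 held neither spelling in theirs. Of the 22 members not called, 12 held a pair (54.5%), and 2 held a run of 3, Dnajb6 and Hspd1 (9.09%). The run of Hspd1 is the same stretch as that of the called Hspe1. Hspa1a and Hspa1b, whose windows were identical at 296 of 300 bases, each held 1 pair of units, GAAGATTC, at 104 bases before the start.

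The firmness of the 9 calls differed. Hsph1, Hspa4l and Ahsa1 were called with any 1 of the 9 arrays left out, with limma adjusted p of at most 0.00503, 0.0215 and 0.0348. Stip1 was lost without any 1 of the control 24 h arrays (adjusted p up to 0.0591). Hspe1 stayed called only where the array left out was Hmgn5 siRNA replicate 1 or 3 or control 4 h replicate 2, with adjusted p reaching 0.0945 otherwise. For St13 it was Hmgn5 siRNA replicate 3 or control 4 h replicate 2 or 3, with adjusted p reaching 0.116. Hspa8 stayed called only without control 4 h replicate 2 or 3, and Dnajb1 only without control 24 h replicate 3, with adjusted p reaching 0.122 and 0.137. Chordc1 was lost whichever array was left out, with adjusted p reaching 0.155. The Hmgn5 siRNA arrays enter these tests through the shared estimate of the spread.

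**Figure D3:**
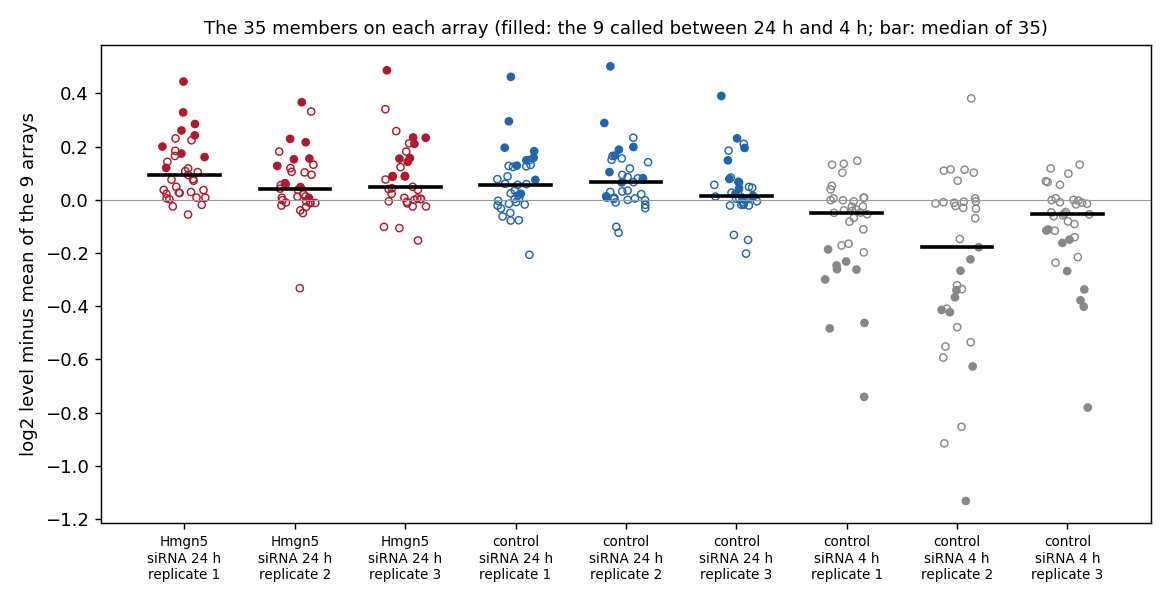
Each point is 1 of the 35 measured members on 1 array, as RMA log2 level minus that gene's mean over the 9 arrays (vertical axis), with Hmgn5 siRNA at 24 h in red, control siRNA at 24 h in blue and control siRNA at 4 h in grey; filled points are the 9 members called over time and bars are the median of 35. The medians lie between 0.04 and 0.09 with Hmgn5 siRNA and between 0.02 and 0.07 with control siRNA at 24 h, and at -0.05, -0.18 and -0.05 on the 4 h arrays, where replicate 2 is lowest.

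Control 4 h replicate 2 bears on several members that were not called. It was the lowest of the 9 arrays for 17 of the 35 members (48.6%), against 22.6% of all genes, and for 5 of the 7 TRiC subunits. Bright genes were low on it in general: among genes with a mean level over 8 it was lowest for 38.9%, and for 16 of the 26 members at that level (61.5%). Relative to the mean of the other 4 h arrays it was lower by over 0.3 for 9 members (25.7%), against 11.3% of all genes, a limit chosen after the values were seen. Among genes with a mean level over 8 the shares were 30.8% of the members and 21.1% of all genes. The 9 were Hspb8 (-0.86), Cdc37 (-0.70), Bag3 (-0.62), Fkbp5 (-0.54), Hspd1 (-0.51), Fkbp4 (-0.48), Cct7 (-0.45), Cct2 (-0.37) and Hsph1 (-0.37). On the probe set used, Hspb1 went the other way and was higher on that array by 0.60. A second probe set of Hspb1 alone read 4.34 on it, against 5.12 and 4.63 on the other 4 h arrays. The part of array quality in these values was not tested.

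**Figure D4:**
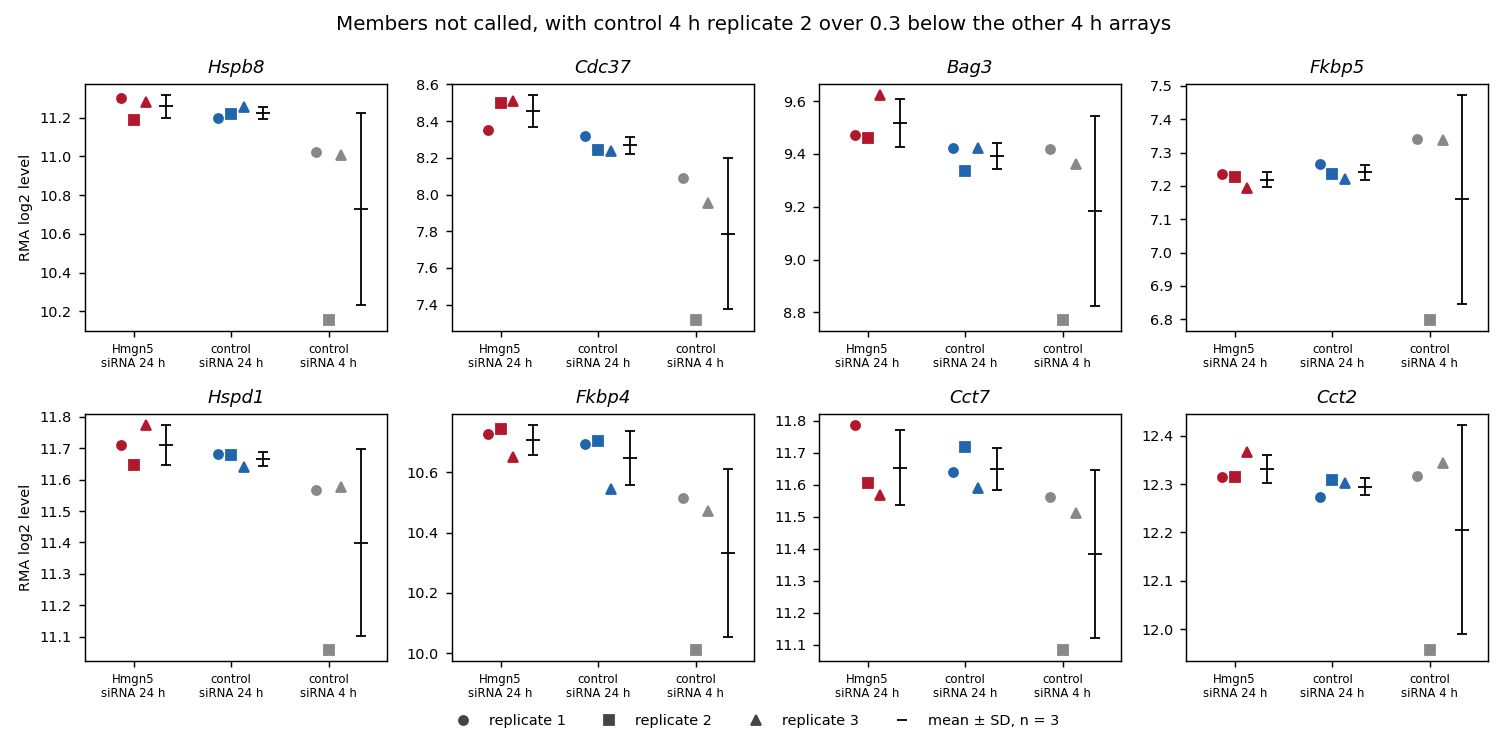
RMA log2 levels (vertical axis, a separate scale for each gene) of 8 members that were not called over time and read over 0.3 lower on control 4 h replicate 2 (grey square) than on the other 4 h arrays; Hmgn5 siRNA at 24 h is in red, control siRNA at 24 h in blue, control siRNA at 4 h in grey, and bars are mean ± SD, n = 3. The deviation runs from -0.37 for Cct2 to -0.86 for Hspb8.

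Without that array 7 of the 9 calls were kept, and Dnajb1 (0.37, limma adjusted p = 0.0728) and Chordc1 (0.29, limma adjusted p = 0.0816) were lost, where 2.64% of all genes were called higher and 2.94% lower. The median difference of the members was then 0.11, and 27 of the 35 lay above 0, against 56.0% of all genes. Hspb8 differed by 0.21 (limma adjusted p = 0.0701), Cdc37 by 0.25 (limma adjusted p = 0.0908) and Hspd1 by 0.10. Fkbp5 changed its sign, to -0.10, as did Cct2, to -0.04. Hspb1, at 0.26 on the probe set used, moved closest to a call (limma adjusted p = 0.0538). Its second probe set differed by -0.15 with all arrays. Control 4 h replicate 2 read 4.34 on that probe set, below the other 4 h arrays (5.12 and 4.63). Leaving it out therefore moves that difference further below 0, away from the 0.26. Hspb8, Cdc37, Hspd1, Fkbp5, Cct2 and Hspb1 were called neither with the array nor without it. Among the members not called, Hspa2 was at 0.08 without the array, Ptges3 at -0.05 on its own probe set and Hspa1b at 0.01.

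**Figure D5:**
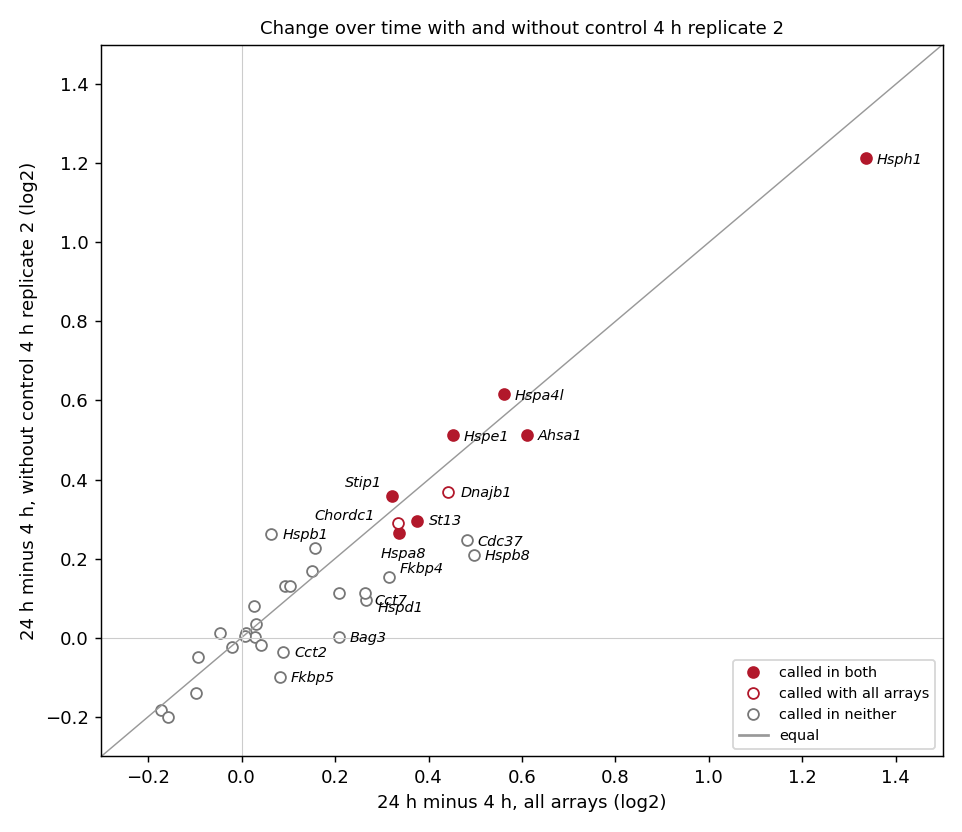
Difference between 24 h and 4 h in control cells (RMA log2) for the 35 measured members, with all arrays (horizontal axis) and without control 4 h replicate 2 (vertical axis); the line marks equal values. Filled red points were called both ways, open red points (Dnajb1, Chordc1) only with all arrays, and grey points neither way; Hsph1 lies at 1.34 and 1.21, while Hspb8, Cdc37 and Bag3 lie well below the line.

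Lowering Hmgn5 did not move any chaperone gene past the threshold at 24 h. limma called 0 of the 35 members between Hmgn5 siRNA and control siRNA, where 0.0135% of all genes were called (0.00902% higher and 0.00451% lower), and 0 of the 35 had an unadjusted p under 0.05, where 5.25% of all genes did. Each of the alternative settings also gave 0 calls. The smallest adjusted p was 0.979. Differences ran from -0.20 for Cryab, the lens and muscle small heat shock protein, to 0.19 for Cdc37, with a median of 0.02, against 0.00 over all genes. Of the 35, 24 lay above 0 (49.2% of all genes did).

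The intervals of these differences varied in width. The 95% interval ran from -0.24 to 0.21 for Hsph1, from -0.15 to 0.16 for Hspa4l, from -0.13 to 0.26 for Ahsa1 and from -0.17 to 0.16 for Hspa8. The widest, for Hspb8, ran from -0.40 to 0.47. For Hsph1 the change over time had a 95% interval from 1.11 to 1.56, which lies outside the interval of the siRNA difference. For Chordc1 it ran from -0.10 to 0.26, against a change over time of 0.33.

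The Hmgn5 siRNA arrays lay wholly above the control arrays at 24 h for 5 members, Bag3, Ahsa1, Stip1, Cdc37 and Cct2 (6.65% of all genes did), and wholly below for 1, Cryab (5.62% of all genes did). Stip1 read 10.85, 10.84 and 10.90 with Hmgn5 siRNA, against 10.77, 10.77 and 10.76 with control siRNA. The gap of 0.10 was small and regular (SE 0.06, limma adjusted p = 0.979). Ahsa1 differed by 0.07 and Cdc37 by 0.19, both with adjusted p close to 1. Cryab read 6.43, 6.05 and 6.43 with Hmgn5 siRNA, against 6.44, 6.46 and 6.59 with control siRNA. Its mean difference was -0.20, with replicate 2 of the Hmgn5 siRNA arrays the lowest of the 9 arrays.

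Hmgn5 siRNA cells at 24 h were also set against control cells at 4 h, where siRNA and time differ together and the 4 h arrays are those used above. Of the 35 members 7 were called higher and 0 lower, where 1.52% of all genes were called higher and 1.04% lower (2.57% in all). In numbers, 338 genes were called higher and 231 lower, or 375 and 148 with each array centred on its median. The Hmgn5 siRNA arrays lay wholly above the 4 h arrays for 19 members (10.3% of all genes) and wholly below for 1, Dnaja2 (8.59% of all genes), and 29 members lay above 0 (51.9% of all genes). The differences were 1.32 for Hsph1, 0.68 for Ahsa1, 0.57 for Hspa4l, 0.57 for Hspe1, 0.42 for Stip1, 0.42 for Chordc1 and 0.38 for St13, beside 1.34, 0.61, 0.56, 0.45, 0.32, 0.33 and 0.37 in control cells. Hspa8 at 0.33 (limma adjusted p = 0.0519) and Dnajb1 at 0.39 (limma adjusted p = 0.0798) missed the threshold here, as did Cdc37 at 0.67 (limma adjusted p = 0.0724). Without control 4 h replicate 2 the 7 calls were kept and Cdc37 was called as an eighth, at 0.43 (limma adjusted p = 0.019), where 2.01% of all genes were called higher and 1.53% lower. Cdc37 was also called without control 4 h replicate 1 (0.82, limma adjusted p = 0.0457) and with array weights (0.48, limma adjusted p = 0.0221). Hspa8 was called in 6 of the 20 other settings, which did not include leaving out an array, and St13 was lost in 13 of them. The test of whether the siRNAs differ in these changes is the comparison at 24 h above, in which no member was called. The calls of Hsph1, Ahsa1, Hspa4l and Stip1 were kept with any 1 array left out.

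The wider chaperone machinery was followed in 8 further lists of 86 genes, of which 78 were measured. Over time in control cells 1 of the 78 rose and 3 fell, against 2.17% of all genes in each direction. Dnajb2, a neuronal J-domain protein, rose by 0.66 (SE 0.14, limma adjusted p = 0.0291). Dnajc2, a J-domain protein of the ribosome, fell by 0.36 (SE 0.05, limma adjusted p = 0.00832). The HSP90 co-chaperone genes Nudcd2 and Cdc37l1, the second a relative of Cdc37, fell by 0.44 and 0.36 (limma adjusted p = 0.0297 and 0.0393). Without control 4 h replicate 2 Dnajb2 was at 0.47, Dnajc2 at -0.38 and Nudcd2 at -0.55, all still called, and Cdc37l1 at -0.35 was lost (limma adjusted p = 0.0674). Lonp1, a mitochondrial protease, was then called lower at -0.34 (limma adjusted p = 0.0435), against -0.04 with all arrays. So the co-chaperones of HSP90 beyond the main list held 2 falls and 0 rises among 16 measured, with a median of 0.07, or -0.04 without that array. Among the 16 other J-domain genes there were 1 rise and 1 fall, with a median of -0.02 both ways. Over the 78 the median was 0.06 with all arrays and -0.01 without that array.

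The other 6 of these lists had no call over time with all arrays. The smallest p belonged to Bag2 (0.22, limma adjusted p = 0.181) among 9 other HSP70 relatives and exchange factors, and to Cryaa (0.11, limma adjusted p = 0.572) among 5 other small heat shock genes. Among 10 further genes of TRiC, prefoldin and the phosducin-like proteins it was Pdcl3 (-0.22, limma adjusted p = 0.104), and among 5 tubulin folding cofactors Tbca (0.14, limma adjusted p = 0.379). Clpp, a mitochondrial protease subunit, differed by -0.22 (limma adjusted p = 0.0839), and Hsf2bp, which binds Hsf2, by 0.31 (limma adjusted p = 0.365). Bag2 was at 0.14 and Hsf2bp at 0.19 without control 4 h replicate 2. With Hmgn5 siRNA against control siRNA at 24 h limma called 0 of the 78, and 2 had an unadjusted p under 0.05, Hscb at -0.17 and Dnajc2 at 0.13 (limma adjusted p = 0.926 for both). Against control cells at 4 h, Hmgn5 siRNA cells showed 0 calls among the 78, with Dnajb2 closest at 0.62 (limma adjusted p = 0.05004). Without control 4 h replicate 2 there were 3, with Dnajb2 higher (0.43) and Dnajc2 and Nudcd2 lower (-0.25 and -0.40).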

How the data were processed

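RNA of 9 samples was hybridised to 1 Affymetrix array each. The deposited values are log2 signals per probe set, made with oligo and RMA per the submitters' processing notes; versions and the genome build of the probes are not given in the sources used here. Background correction and quantile normalization, which RMA includes, hide a change shared by most genes. Of 41345 probe sets, 23521 had 1 gene symbol, 1814 several and 16010 none; 23328 of the first matched RefSeq by gene ID and 0 differed in symbol. All 22180 genes entered 1 fit of the 3 group means (limma 3.58.1, R 4.3.3, lmFit and eBayes, 6 residual and 3.55 prior degrees of freedom), with 3 contrasts and Benjamini-Hochberg adjustment. A run on simulated data checked the code only, as values were drawn gene by gene with no array unlike the others. The number of arrays limits the precision. The members, roles and wider lists were chosen with earlier results of these data known. All members are given values, with every array for those called; from each wider list every called gene (up to 4) is named, or the 1 with the smallest p. Promoter letters came from RefSeq windows. Alternatives covered the replicate block, groups in the fit, the prior, array weights, a filter on dim genes, scaling, probe set choice, a minimum change and each array left out.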

Additional observations from a re-analysis of the deposited data

How the results depend on the processing

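Against control siRNA at 24 h, Hmgn5 siRNA gave 0 calls among the members in every setting run. Over time in control cells the 9 calls became 3 in a fit of only the 2 groups compared, 4 without the empirical Bayes step, 0 with a required change of 1.5-fold, 4 when every probe set entered the fit (a setting chosen after seeing the data), and 3 to 7 with 1 array left out. Between Hmgn5 siRNA at 24 h and control siRNA at 4 h the 7 calls became 3, 4, 0 and 4 in the same settings, and 4 to 8 with 1 array left out. Fewer samples in the fit, or more features in the adjustment, are part of these settings. The median difference over time lay between 0.0922 and 0.178 with 1 array left out, and was lowest without control 24 h replicate 2. Centring each array on its median left 7 calls over time, losing Hspa8 and Chordc1. Whether the same numbers mark paired samples is not in the labels. Deviations from the group mean correlated at 0.01 to 0.29 between same-numbered arrays, over 0.1 for 2 of 9 pairs. Between the other arrays of different groups they correlated at -0.22 to 0.08. With the replicate number as a block there were 9 calls over time and 7 between Hmgn5 siRNA at 24 h and control siRNA at 4 h. The first were the 9 of the fit without a block, while of the second 6 were kept, St13 was lost (limma adjusted p = 0.0574) and Hspa8 was gained (limma adjusted p = 0.0425). The 3-unit heat shock element stood in 5 promoters where the 2-unit element stood in 17, and the 2-unit element stood in every window of 12.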

Other observations

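Some members lie on probe sets annotated to several genes, which entered no comparison above. Over time in control cells, with all arrays, the probe set of Dnaja1 and Mir207 differed by 0.11 and that of Stub1 and Jmjd8 by 0.09. That shared by Hspa1a and Hspa1b differed by 0.20 and that of Hspb2 and Cryab by 0.15. Control 4 h replicate 2 moves the first 3 of these. It read 8.50 for Dnaja1, above the other 4 h arrays (8.05 and 8.19). It was below them for Stub1 (8.25, against 8.44 and 8.49) and for Hspa1a and Hspa1b (3.68, against 3.93 and 3.95). The probe set of Snord14e and Hspa8 differed by -0.23 and that of Dnajb6 and Gm5129 by -0.09, both with overlap. The probe sets of Ptges3 and its pseudogene differed by 0.41 and 0.09, beside -0.09 for the dim probe set of Ptges3 alone. The one at 0.41 had no overlap between the times (limma adjusted p over probe sets = 0.414). Control 4 h replicate 2 read 8.46 on it, against 9.30 and 9.30 on the other 4 h arrays, so much of the 0.41 rests on that array. The probe set of Dnajb6 and Gm5129 read 6.20 ± 0.03 with Hmgn5 siRNA and 6.43 ± 0.03 with control siRNA at 24 h (mean ± SD, n = 3), a difference of -0.23 without overlap (limma adjusted p over probe sets = 1.00), while the probe set of Dnajb6 alone differed by 0.00.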
